A study of Mus musculus with 10 samples.

Results

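Mast cells were a small part of the embryonic mouse pancreas libraries, with 220 cells among the 57982 cells kept in 8 libraries. A cell was counted as a mast cell when the mast proteases *Cma1*, *Cpa3* and *Tpsb2* together made up at least 0.2% of its unique molecular identifiers (UMIs, each 1 captured RNA molecule) and at least 5 UMIs. It also needed fewer than 5 UMIs of the complement genes *C1qa*, *C1qb* and *C1qc* and none of the epithelial gene *Epcam*. Macrophages, with at least 5 UMIs of the complement genes and at least 1 of *Tyrobp*, gave 1756 cells for comparison. Because the members were chosen by the measured counts of these genes, their levels are given below as a description and without a test.

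The study profiled pancreas at the embryonic (E) days of gestation E12.5, E14.5 and later E17.5 by droplet single-cell RNA sequencing. Libraries of the version 1 (v1) kit held all live cells of Swiss Webster embryos, from E12.5, from E14.5 in batches 1 and 2, and from E17.5. Libraries of the version 2 (v2) kit held live cells of the same strain without the CD140a+ mesenchymal cells, for each of the same stages. An 8th library, also with the v2 kit, came from E14.5 *Fev-Cre; ROSA26mTmG* embryos, from mice kept on a C57BL/6J background by the study's methods, and mixed sorted lineage-traced GFP+ cells with TdTomato+ cells. Its reporter marks cells in which the *Fev* promoter has driven Cre. Every library was a pool of pancreata, so the pool and not the embryo was the independent sample. The 2 wells of E17.5 v2 came from 1 suspension and were summed. Digestion lasted 10 min at E12.5, 15 min at E14.5 and 30 min at E17.5, so stage and digestion time cannot be told apart.

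Mast cells are granulated cells of the haematopoietic system that settle in tissues as progenitors and mature there. Their granules store proteases (chymases, tryptases and carboxypeptidase A), histamine and heparin bound to the proteoglycan serglycin. Signals through the high-affinity IgE receptor, or through KIT, the receptor for stem cell factor, govern their release, growth and survival.

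The 8 libraries held 15671934 to 196793242 UMIs over 3849 to 17433 barcodes. Haemoglobin genes took 0.0128% of all UMIs in the Fev-Cre library and 60.9% in E17.5 v1, with 24.9% in E14.5 v1 batch 2 and 31.8% in E17.5 v2. Pairs of libraries or wells of the same kit shared 10 to 155 barcode sequences, at most 1.79% of the smaller of the pair. In each pair 0 barcodes belonged to a mast cell on both sides. Barcodes shared by a mast cell and another kind of cell were not counted.

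Mast cells were found in every library. They made up 0.130% of cells at E12.5, 0.225% and 0.592% in E14.5 batches 1 and 2, and 1.30% at E17.5 with the v1 kit. The v2 libraries held 0.235%, 0.418% and 0.595% by rising stage, against 0.0507% in the Fev-Cre library. These shares rest on 6, 8, 27 and 30 cells in the v1 libraries, on 31, 38 and 76 in the v2 libraries, and on 4 in the Fev-Cre library. The exact 95% binomial interval, which covers counting error only, ran from 0.878% to 1.85% for E17.5 v1 and from 0.0477% to 0.283% for E12.5 v1. For E12.5 v2 and E17.5 v2 it ran from 0.160% to 0.334% and from 0.469% to 0.744%. Under this rule the E17.5 library was thus the highest in share with each kit, and its interval did not reach that of E12.5. The rank of E17.5 v2 above E14.5 v2 depends on the *Epcam* limit, as given below.

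**Figure D1:**
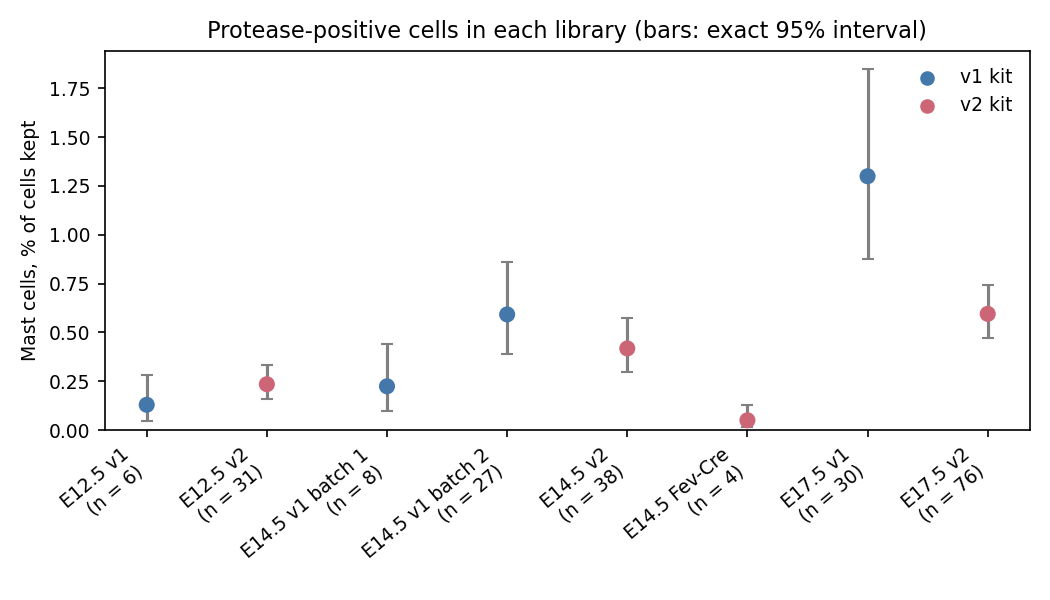
Mast cells as a percentage of the cells kept in each library, plotted by library. Bars show the exact 95% binomial interval, which covers counting error only. Within each kit the E17.5 library is highest, at 1.30% (v1) and 0.595% (v2), and the Fev-Cre library is lowest, at 0.0507%.

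Across the 8 libraries the relation of the share to embryonic day did not pass a test. Pearson's r between embryonic day and the log2 of the share was 0.635 (2-sided permutation p = 0.0905, Benjamini-Hochberg adjusted 0.181 over 4 relations). Spearman's rho was 0.694 (permutation p = 0.0762, adjusted 0.181). Without the 2 libraries farthest from the median day, both E17.5, r was 0.163 (permutation p = 0.933), so the relation rests on those libraries. Without the Fev-Cre library r was 0.850 (permutation p = 0.0286). Each kit alone had at most 4 libraries, too few for a correlation of its own. The sort and the kit changed together and cannot be told apart. Set against macrophages, there were 31.6, 15.4, 112.5 and 214 mast cells for every 100 macrophages in the v1 libraries, from E12.5 through both E14.5 batches to E17.5. The v2 values were 4.51, 19.0 and 11.4, with 4.17 in the Fev-Cre library. For the log2 of that ratio r with embryonic day was 0.391 (permutation p = 0.329, adjusted 0.438) and rho 0.231 (permutation p = 0.633).

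The proteases that chose the cells varied widely among them. The share of UMIs from *Cma1*, *Cpa3* and *Tpsb2* ran from 0.211% to 29.4% of a cell, with a median of 2.78%. It was under 1% in 57 cells, from 1% to 5% in 84, and 5% or more in 79. The library medians were 0.810%, 1.07%, 2.35% and 5.07% in v1, from E12.5 through both E14.5 batches to E17.5, and 1.19%, 2.68% and 5.77% in v2 by rising stage. The 4 cells of the Fev-Cre library had a median of 4.19%. All 3 genes were present in 117 cells (53.2%), *Cma1* and *Cpa3* without *Tpsb2* in 58 (26.4%), and *Cpa3* alone in 44 (20%). Carboxypeptidase A3 was therefore found in every mast cell, while chymase and tryptase were not.

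Cells lay on both sides of the limits of the rule. At the count limit, 13 cells with 4 protease UMIs lay outside and 1 with 5 lay inside. At the share limit, 23 cells at 0.1% to 0.2% lay outside and 23 below 0.4% lay inside. The complement genes kept out 1 further cell and *Epcam* kept out 51. Of these, 25 were from E14.5 v2, 10 from E12.5 v2, 5 and 7 from the wells of E17.5 v2, 3 from Fev-Cre and 1 from E17.5 v1. This limit thus lowered the share of E14.5 v2 most, and the order of E14.5 v2 and E17.5 v2 depends on it.

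Several mast cell genes that the rule did not use were widely detected in the chosen cells, and others were sparse. *Hdc*, the histidine decarboxylase that makes histamine, was detected in 97.7% of the 220 cells, and *Gata2*, a transcription factor of mast cells and their progenitors, in 94.5%. The steroidogenic enzyme gene *Cyp11a1* was found in 79.1%, *Kit* in 71.8% and the interleukin 33 receptor *Il1rl1* in 70.9%. The IgE receptor chains that are not shared with macrophages were sparser, at 39.5% for *Ms4a2* (beta chain) and 16.8% for *Fcer1a* (alpha chain). *Tpsab1* was in 99 cells and *Mcpt4* in 16, *Slc18a2* was in 22.6% to 52.6% of the cells of a library, and *Mitf* was in a minority. *Hdc*, *Gata2* and *Cyp11a1* were in 100%, 96.4% and 96.4% of the 28 cells with *Mcpt8* only, described further on. Those 3 genes thus do not set these cells apart. When every cell was thinned to 1000 UMIs the values were 84.1% for *Hdc*, 51.4% for *Gata2*, 28.2% for *Kit*, 13.2% for *Ms4a2* and 5.91% for *Fcer1a*. In macrophages, thinned the same way, *Hdc* was in 0.228% of cells and *Kit* in 0.171%.

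The same genes were found at low shares in epithelial cells (at least 3 *Epcam* UMIs). Free RNA and droplets that held a mast cell as well cannot be told apart there. In E17.5 v2, epithelial cells (median 12915 UMIs, against 6687 in mast cells) held *Cma1* in 4.98%, *Cpa3* in 1.62%, *Hdc* in 2.59% and *Fcer1a* in 0.0188% of 5321 cells. In E14.5 v2, 172 of 6494 epithelial cells held 3121 UMIs of *Cpa3* in all and 123 held 1753 of *Cma1*. In E17.5 v2, *Kit* was in 13.6% of the epithelial cells and *Cd63* in 99.6%, so detecting either gene does not by itself mark a mast cell. In E17.5 v2 100% of the 76 mast cells held *Hdc*, 80.3% held *Kit* and 34.2% held *Fcer1a*.

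Genes of other blood cells were found in the mast cells too. Summed over 27 macrophage genes, mast cells had 1429 to 5580 CPM (UMIs per 1000000 UMIs of the class in a library) per library against 31988 to 56715 in macrophages. Only 24 of these 27 genes lay outside the rule, so this contrast was partly fixed by the choice of the cells. In mast cells 20 of the 27 were detected. The macrophage markers *Mrc1*, *Trem2*, *Ly86*, *Timd4*, *Cd163*, *Lyve1* and *Folr2* were at 0 in all 220 cells. The 5 basophil genes (*Mcpt8*, *Prss34*, *Cd200r3*, *Fcer1a* and *Il4*) summed to 289 to 7750 CPM in mast cells and 0 to 846 CPM in macrophages. The sum of 11 lymphoid genes was 31.4 to 822 CPM in mast cells and 53.0 to 125 CPM in macrophages. The 9 erythroid genes ran from 0 in Fev-Cre to 62284 and 86946 CPM in E17.5 v1 and v2, with 9.48 to 157092 CPM in macrophages. The protease *Mcpt8*, known from basophils, was concentrated in a small group of the cells described further on, and to that extent the label mast cell is not borne out for all 220.

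Apart from *Cpa3*, on another chromosome, the granule protease genes described here lie in 2 gene clusters. On GRCm38 the chymase cluster spanned chr14:55941451-56262260, and its genes from *Cma1* to *Gzmb* gave 20634 UMIs of *Cma1*, 77 of *Cma2*, 54 of *Mcpt1*, 0 of *Mcpt9*, 126 of *Mcpt2*, 126 of *Mcpt4*, 2920 of *Mcpt8*, 383 of *Ctsg* and 1199 of *Gzmb*. The tryptase cluster spanned chr17:25298394-25374442 and gave 903 UMIs of *Prss34*, 5896 of *Tpsab1*, 13767 of *Tpsb2* and 94 of *Tpsg1*. Neighbours in 1 cluster thus ran from 0 to 20634 UMIs. The annotated transcripts of *Tpsb2* and *Tpsab1* shared 77.2% of positions, *Mcpt1* and *Mcpt4* 85.6%, and *Mcpt4* and *Mcpt9* 84.9%, so reads could be split between such copies and their counts are less certain.

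The sequences just upstream of 4 of these genes are shown because their transcripts mark the cells: *Cma1* and *Cpa3* were in the rule, *Ms4a2* encodes the IgE receptor beta chain, and *Prss34* is a protease of part of the cells. Each is the 250 bases before the transcription start in RefSeq on GRCm38.p6, read 5′ to 3′ on the strand of the gene. Capitals mark GATAA or its reverse complement TTATC, the core bound by GATA factors such as GATA2. *Cma1* lies upstream of its start at chr14:55944676-55944925 (minus strand), *Cpa3* at chr3:20242182-20242431 (minus), *Ms4a2* at chr19:11623720-11623969 (minus) and *Prss34* at chr17:25298144-25298393 (plus).
Cma1: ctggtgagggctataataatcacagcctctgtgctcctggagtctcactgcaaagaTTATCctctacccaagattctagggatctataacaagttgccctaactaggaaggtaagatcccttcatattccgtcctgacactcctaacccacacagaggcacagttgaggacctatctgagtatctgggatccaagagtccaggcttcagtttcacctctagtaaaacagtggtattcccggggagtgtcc
Cpa3: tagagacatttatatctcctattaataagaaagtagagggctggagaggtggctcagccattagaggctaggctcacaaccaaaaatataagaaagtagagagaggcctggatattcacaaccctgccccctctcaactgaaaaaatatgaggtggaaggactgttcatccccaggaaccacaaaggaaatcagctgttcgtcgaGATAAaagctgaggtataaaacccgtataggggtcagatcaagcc
Ms4a2: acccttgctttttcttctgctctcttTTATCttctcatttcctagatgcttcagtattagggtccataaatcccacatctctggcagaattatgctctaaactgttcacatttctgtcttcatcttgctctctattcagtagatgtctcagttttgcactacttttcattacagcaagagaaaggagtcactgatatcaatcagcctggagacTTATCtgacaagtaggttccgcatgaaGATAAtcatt
Prss34: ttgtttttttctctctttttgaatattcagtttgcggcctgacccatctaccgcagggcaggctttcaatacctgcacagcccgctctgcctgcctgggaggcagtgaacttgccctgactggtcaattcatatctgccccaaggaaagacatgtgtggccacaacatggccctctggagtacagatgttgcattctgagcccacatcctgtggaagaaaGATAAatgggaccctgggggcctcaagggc

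The letters GATAA, on either strand, stood 194 bases before the start of *Cma1*, 45 before that of *Cpa3*, 30 before that of *Prss34*, and 224, 37 and 10 before that of *Ms4a2*. The search took 17 marker genes of mast cells or basophils, the latter being *Mcpt8*, *Prss34* and *Cd200r3*. Of these 17, 15 had 1 to 3 promoters in the table, and 12 of these 20 promoters, of 10 genes, held the letters. Among all 32851 promoters of the same length 7418 (22.6%) did. The letters were not in this window of *Kit*, *Gata2* or *Cd63*. They were not in that of *Hdc* or *Mcpt8* either, but for these genes the start in RefSeq and that in the gene annotation of the genome differ, so the window may not be the one next to the start in use. A match describes the sequence only and is not evidence of binding.

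Mast cells were set against macrophages in the 5 libraries that held at least 10 cells of each. These were E14.5 v1 batch 2, E17.5 v1 and the v2 libraries of the 3 stages of Swiss Webster embryos. Both classes were cut from the counts that are compared here, so the values describe how they differ and carry no weight as a test. Of 3906 genes, 408 (10.4%) were higher and 489 lower in mast cells at an adjusted p below 0.05 (edgeR) and at least 2-fold, so that 23% were called in either direction. Differences between the classes are log2 ratios of mast cells to macrophages ± SE, and levels are CPM. In bulk sums of this kind fewer transcripts per cell and fewer cells with the transcript cannot be told apart.

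Among granule proteases outside the rule, 5 of 9 passed the filter on low counts and 5 were called higher. *Cma2* and *Mcpt4* had 0 UMIs in macrophages, *Gzmb* 1 and *Ctsg* 2, so these genes passed through the mast cells alone and their direction was fixed by the filter. *Cma2* and *Mcpt4* were at least 331-fold and 574-fold higher. *Tpsab1*, which encodes a second tryptase, reached 39.4 and 173 CPM in the mast cells of E12.5 v1 and v2, and 393, 2769 and 793 CPM in E14.5 batch 1, batch 2 and v2. In the Fev-Cre library it was 62.7 CPM, and 10166 and 7719 CPM were reached in E17.5 v1 and v2. In macrophages it was 0 to 16.7 CPM, and the difference was 9.18 ± 0.96. *Gzmb*, the cytotoxic serine protease granzyme B, ran from 0 to 2784 CPM in mast cells and from 0 to 0.155 CPM in macrophages. Over the 5 libraries these were 1176 UMIs against 1, a 16213-fold ratio with an exact 95% counting interval from 2904 to 640924. *Ctsg* (cathepsin G) was 0 in 4 of the 8 libraries, and 142, 132, 907 and 454 CPM in the mast cells of E14.5 (v1 batch 2, v2) and E17.5 (v1, v2).

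Of the genes for histamine and serotonin, *Hdc* was higher in the mast cells of every library than in any macrophages. *Hdc* was 1143 and 1679 CPM at E12.5 (v1, v2), 2822, 3039 and 2714 CPM at E14.5 (batch 1, batch 2, v2), 4045 CPM in Fev-Cre and 5469 and 6336 CPM at E17.5 (v1, v2). The macrophages lay at 0 to 260 CPM, below every mast cell value. *Slc18a2*, the transporter that loads amines into granules, was 45.7 to 157 CPM in mast cells and 0 to 0.621 CPM in macrophages. *Tph1*, the enzyme that starts serotonin synthesis, was at 0 in the mast cells of E12.5 v1, E14.5 batch 1 and Fev-Cre, and at 15.2 to 625 CPM in the others.

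Lipid mediator genes divided between the classes. *Alox5*, which opens the leukotriene pathway, was 76.1 to 392 CPM in mast cells and 0 to 21.5 CPM in macrophages (4.01 ± 0.32). *Ltc4s*, which makes leukotriene C4, was higher in macrophages, at 9.62 to 285 CPM against 0 to 5.08 CPM (-6.21 ± 0.38). *Ptgs2* was higher and *Ptgs1* and *Hpgd* were lower in mast cells. Of the 10 amine and lipid genes tested 5 were higher and 3 lower, with *Alox5ap* and *Hpgds* in neither count.

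Serglycin and the IgE receptor followed the granule genes in part. *Srgn*, the core protein that holds heparin in granules, was 2715 to 5666 CPM in mast cells against 93.8 to 846 CPM in macrophages (4.01 ± 0.33). *Ndst2*, *Hs2st1* and *Papss2*, which act in heparin sulfation, were also higher, and *Papss1* was not called. *Ms4a2* was 31.4 to 208 CPM in mast cells and 0 in the macrophages of every library but E17.5 v1, where it was 32.5 CPM. The common gamma chain gene *Fcer1g* was 536 to 2391 CPM in mast cells and 2020 to 2739 CPM in macrophages (-0.60 ± 0.17), and did not reach 2-fold. The adaptors *Lat*, *Lat2* and *Lcp2* were higher, and the kinase *Lyn* and phosphatase *Ptpn6* lower, among the 10 tested genes of the pathway.

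Of the list of surface receptors and integrins, 12 of 13 tested genes were higher and *Csf2ra*, which encodes a chain of a cytokine receptor, was lower. *Kit* was 158 and 238 CPM at E12.5 (v1, v2), 143, 382 and 158 CPM at E14.5 (batch 1, batch 2, v2), 470 CPM in Fev-Cre and 368 and 337 CPM at E17.5 (v1, v2), with 0 to 5.37 CPM in macrophages (7.33 ± 0.34). *Il1rl1* differed by 7.57 ± 0.35, the gut-homing integrin gene *Itgb7* by 5.76 ± 0.53 and *Cd34* by 4.91 ± 0.50. The receptors of mature connective tissue mast cells for basic peptides, *Mrgprb1* and *Mrgprb2*, were found in 6 and 11 cells, and were at 0 CPM in all 6 libraries before E17.5.

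The transcription factors fell on both sides, 9 higher and 8 lower of 21 tested. *Gata2* was 500 to 1484 CPM in mast cells and 0 to 81.4 CPM in macrophages (7.78 ± 0.64), and *Gata1* differed by 6.90 ± 0.63 and *Mitf* by 2.50 ± 0.28. *Hes1*, a target of Notch signalling, was 1222 to 5710 CPM in mast cells against 19.2 to 345 CPM (4.14 ± 0.21). The myeloid factor *Maf* (-6.20 ± 0.45) was among the lower ones, as was *Irf8*, with 1 UMI in mast cells against 3454 in macrophages. *Spi1* was 71.0 to 221 CPM in mast cells against 351 to 760 CPM in macrophages, so both classes carried it at different levels.

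Among cytokines, transcripts of the type 2 genes *Il13* and *Il4* were found in the mast cells of every library. *Il13* was 434 and 959 CPM at E12.5 (v1, v2), 393, 1018 and 564 CPM at E14.5 (batch 1, batch 2, v2), 314 CPM in Fev-Cre, and 392 and 79.0 CPM at E17.5 v1 and v2. In macrophages it did not exceed 1.33 CPM. *Il4* was 39.4 to 397 CPM in mast cells and 0 to 32.5 CPM in macrophages (6.91 ± 0.41). *Il5* had 0 UMIs in mast cells. *Il6* and *Osm* were higher too, and *Il1b*, *Ccl2*, *Ccl7* and *Cxcl2* lower, of 13 tested. Of the exocytosis genes *Rab27b*, which docks granules, was 188 to 503 CPM against 0 to 6.65 CPM, and *Stx3* was the other of 6 tested that was higher.

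**Figure D2:**
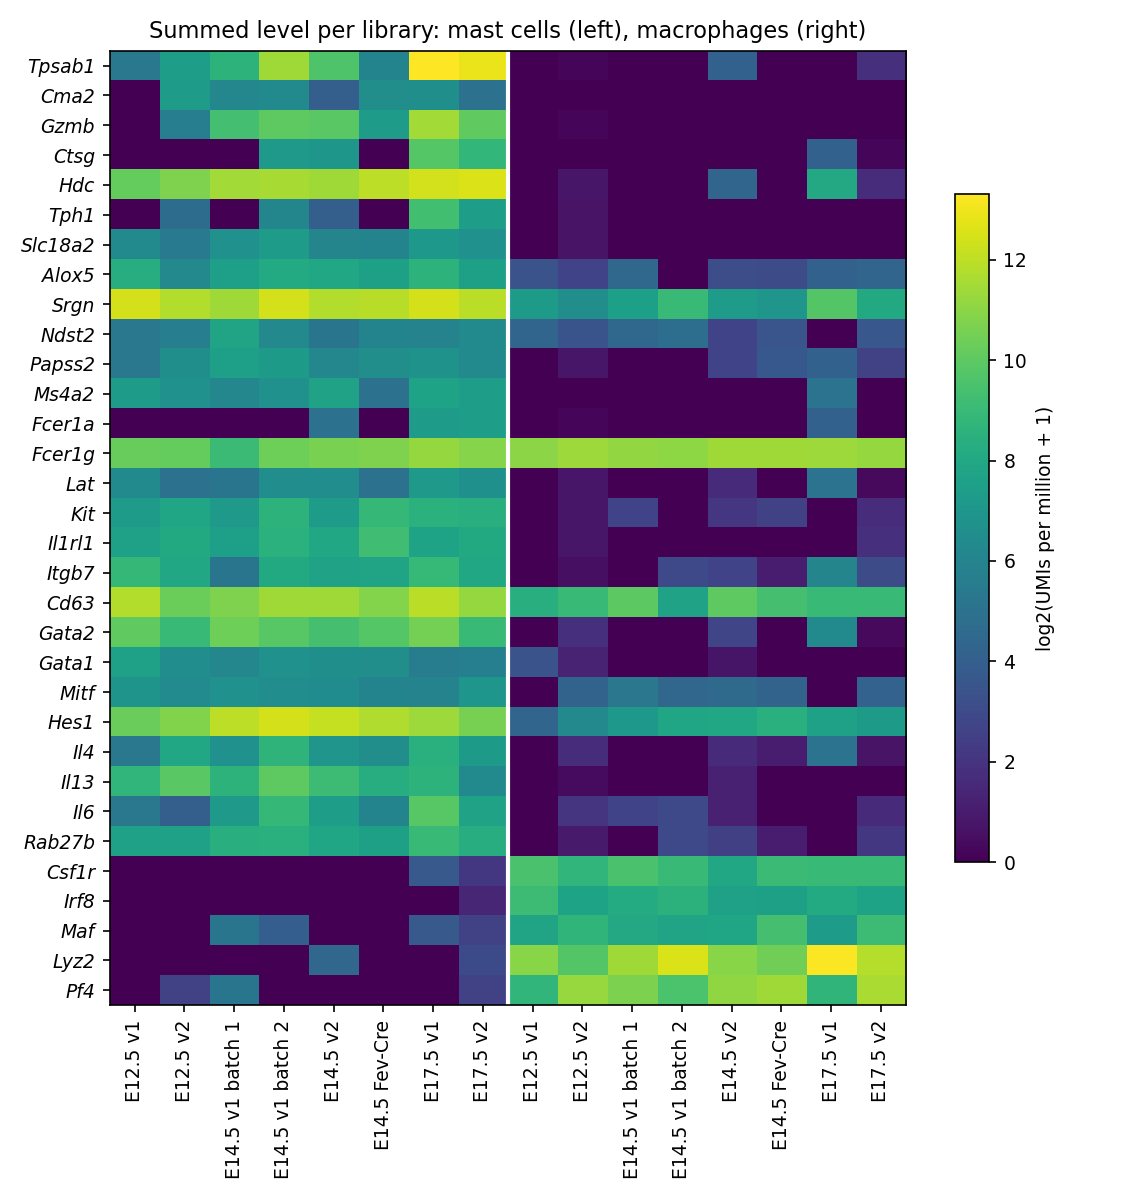
Heat map of log2(CPM + 1) for 32 genes, with the mast cells of the 8 libraries on the left and the macrophages of the same libraries on the right. *Hdc*, *Gata2* and *Srgn* are high in the mast cells of every library, whereas *Tpsab1*, *Ctsg* and *Fcer1a* are highest at E17.5.

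Further genes had large differences at counts near 0 in 1 class. *Prss34*, one of the basophil genes, was 10823-fold higher in mast cells over the 5 libraries (exact 95% counting interval 1937 to 428007), *Smpx* 4095-fold (1129 to 33889), *Gcsam* 2716-fold (482 to 107813), *Rgs13* 1475-fold (259 to 58804) and *Slc22a3* 1461-fold (257 to 58260). Each had 1 or 2 UMIs in the macrophages. *Lyve1*, *Mrc1* and *Trem2* had 0 UMIs in mast cells and were at least 321-fold, 268-fold and 115-fold lower than in macrophages, taking 3 UMIs over all mast cells as the floor.

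The mast cells were not uniform in their proteases. Cells were sorted by whether they held at least 3 UMIs of tryptase (*Tpsb2* and *Tpsab1* together) and at least 3 of *Mcpt8*, a split chosen after the counts had been seen. Tryptase without *Mcpt8* was found in 108 cells (49.1%), *Mcpt8* without tryptase in 28 (12.7%), both in 4 (1.82%) and neither in 80 (36.4%). Of the 32 cells with *Mcpt8*, 4 also held tryptase, which was 3.57% of the 112 cells with tryptase. The 4 cells with both were all from E17.5 v2. A first split had joined *Prss34* to *Mcpt8* and gave 83 cells with tryptase only, 31 with the other proteases only, 29 with both and 77 with neither. It was replaced because *Prss34* crossed the groups: of 42 cells with *Prss34*, 24 held tryptase and 15 held *Mcpt8*.

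**Figure D3:**
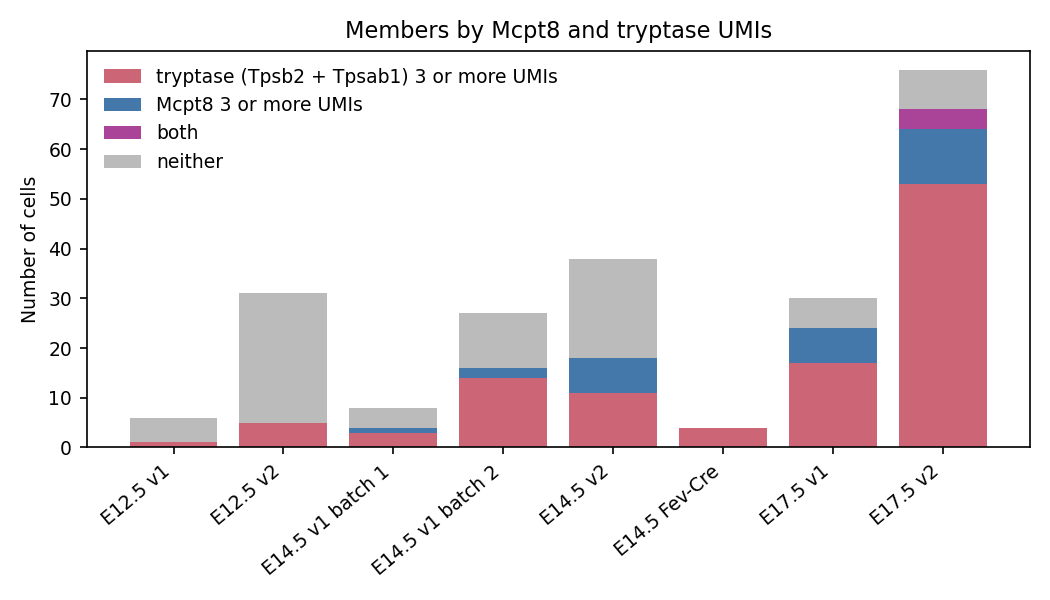
Number of mast cells in each library by protease content, as stacked bars, with 3 UMIs of tryptase or of *Mcpt8* as the limit. Cells with neither form most of the bar in E12.5 v2 (26 of 31) and tryptase cells most of it in E17.5 v2 (53 of 76).

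Tryptase cells formed 16.1% of the mast cells at E12.5 v2 (5 of 31, exact 95% interval 5.45% to 33.7%), 28.9% at E14.5 v2 (15.4% to 45.9%) and 75% at E17.5 v2 (63.7% to 84.2%), counting those with *Mcpt8* too. In the v1 libraries they were 1 of 6 cells at E12.5, 3 of 8 at E14.5 batch 1, 51.9% at E14.5 batch 2 and 56.7% at E17.5, and in Fev-Cre they were 4 of 4. *Tpsb2* was part of the rule, and these shares are a description. They also leave out the cells cut by the *Epcam* limit, most of them in E14.5 v2. There epithelial cells held 1516 UMIs of *Tpsb2* against 788 in mast cells, and in E17.5 v2 991 against 9115. Whether the rise with the v2 kit depends on that limit was not tested. Cells with *Mcpt8* only were absent at E12.5 (0 of 6 and 0 of 31), and numbered 1 of 8, 2 of 27 and 7 of 38 at E14.5 batch 1, batch 2 and v2, and 7 of 30 and 11 of 76 at E17.5 v1 and v2. They came from 5 libraries of both kits.

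Summed over all libraries, the groups differed in much more than the genes that split them. The same cells and counts made the groups, so no test was run. Tryptase cells had 30750 CPM of *Cma1*, 6985 of *Hdc*, 388 of *Kit*, 395 of the stem cell antigen gene *Cd34*, 237 of *Tph1* and 197 of *Hpgds*. In cells with *Mcpt8* only the same genes were 2370, 1820, 87.6, 63.3, 4.87 and 19.5 CPM. The latter cells had instead 2468 CPM of *Prss34* against 630, 472 of *Ms4a2* against 84.1, 526 of *Itgb7* against 172, 243 of *Cd200r3* against 53.2 and 282 of *Runx1* against 25.7. They also had 1523 CPM of *Ctsg* against 87.5, 774 of *Mpo* (myeloperoxidase, a granulocyte enzyme) against 1.72, 2799 of the chemokine *Ccl3* against 22.3, 1168 of *Il6* against 12 and 1076 of the activation marker *Cd69* against 101. *Gata2* (657 and 579 CPM), *Srgn* (4411 and 4648), *Fcer1g* (1944 and 1820) and *Cyp11a1* (769 and 1363) were present in both.

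The groups were also compared in the libraries with at least 5 cells of a group. *Cd69* was 75 to 164 CPM in the tryptase cells of 5 libraries and 664 to 2946 CPM in the *Mcpt8* cells of 3 libraries. *Kit* ranged from 225 to 618 CPM in the former and from 0 to 68.1 CPM in the latter, and *Ms4a2* from 52.4 to 135 CPM and from 457 to 570 CPM. *Mpo* was at most 2.77 CPM in tryptase cells and 587 to 1661 CPM in *Mcpt8* cells. None of these ranges overlapped, and those of *Hdc*, at 2962 to 8620 CPM and 1420 to 2328 CPM, did not either. The ranges were also apart for *Mitf* (67.3 to 150 and 0 to 59.6 CPM), *Il1rl1* (304 to 527 and 125 to 187 CPM) and *Cd200r3* (0 to 72.7 and 247 to 375 CPM). The same was true of *Cd34*, *Itgb7*, *Tph1*, *Hpgds*, *Rgs13*, *Runx1*, *Cebpa*, *Il6*, *Ccl3* and *Ccl6*. The genes compared in this way were hand-picked, and for most of them the ranges did overlap. They overlapped for *Prss34*, at 75 to 1326 CPM and 1178 to 9188 CPM, and for *Ctsg*, at 0 to 943 CPM and 696 to 2025 CPM. The same held for *Gata2*, at 438 to 1598 CPM and 451 to 1164 CPM, and for *Srgn*, *Fcer1g*, *Il4*, *Il13* and *Cyp11a1*. Summed over E14.5, *Prss34* was lower in *Mcpt8* cells, at 751 CPM against 1177 CPM, and at E17.5 higher, at 3242 CPM against 455 CPM.

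The 80 cells with neither protease held 11640.1 CPM of *Cpa3* and 0 of *Fcer1a*. The groups differed in stage, so their other levels are given within a stage. At E14.5 *Kit* was 157 CPM in cells with neither, 426 in tryptase cells and 156 in *Mcpt8* cells, and at E17.5 it was 580, 375 and 56.5 CPM. *Cd34* was 319, 548 and 125 CPM at E14.5 in the same order and 401, 310 and 35.3 CPM at E17.5, and *Il13* was 980, 331 and 689 CPM at E14.5 and 234, 55.0 and 226 CPM at E17.5. The cell cycle inhibitor gene *Cdkn1c* was 588 CPM in cells with neither and 264 CPM in tryptase cells at E14.5, and the order turned at E17.5, with 22.3 and 55.0 CPM. E12.5 held 31 cells with neither and 6 tryptase cells. There *Il13* was 908 and 852 CPM in that order, *Kit* 203 and 369, *Cd34* 214 and 710, and *Cdkn1c* 385 and 170. Median depth was 5077.5 UMIs in these cells, 4942 in tryptase cells and 6266.5 in *Mcpt8* cells. The protease share of a cell had medians of 1.15%, 7.24% and 0.621% in that order, so the *Mcpt8* cells lay closest to the limit of the rule.

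**Figure D4:**
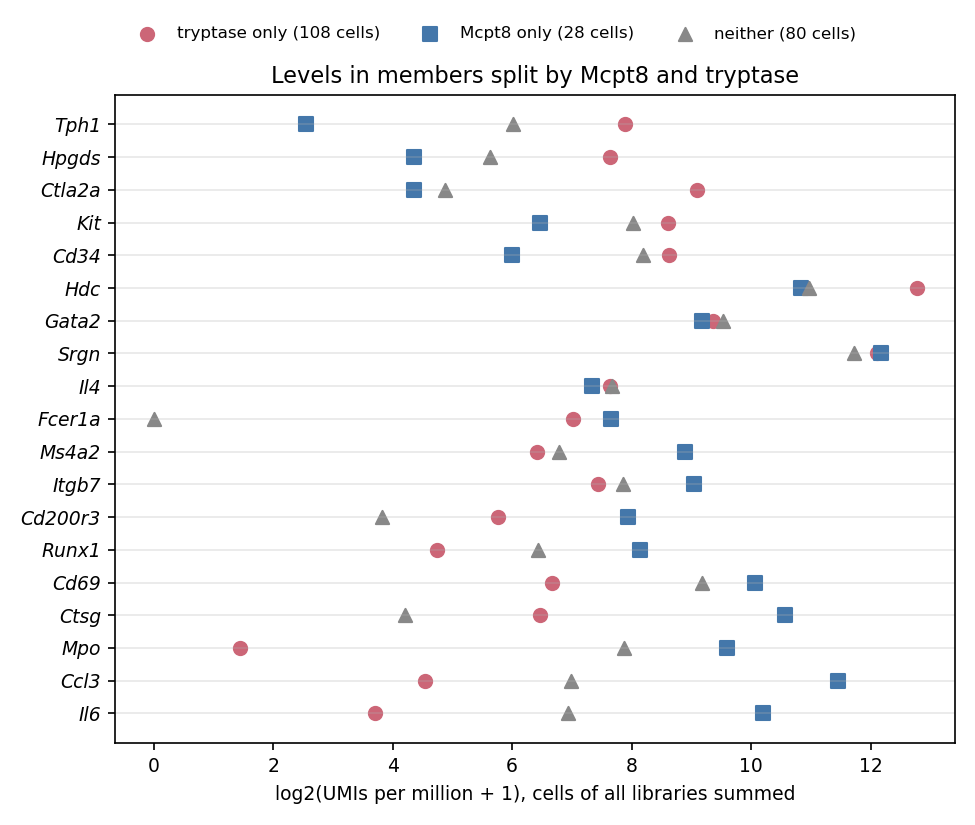
CPM of 19 genes in mast cells with tryptase only (108 cells), *Mcpt8* only (28 cells) and neither (80 cells), summed over all libraries, on a log axis. *Kit*, *Cd34*, *Tph1* and *Hpgds* are lowest in the *Mcpt8* cells, and *Il6*, *Mpo*, *Ccl3* and *Cd69* highest.

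Mast cells at E17.5 were then compared with those at E14.5, adding to the fit a term for the kit. It used the same 5 libraries, left out E14.5 batch 1 with 8 cells and Fev-Cre with 4, and had 1 residual degree of freedom, so that the spread was mostly borrowed across genes. Of 4038 genes, 73 (1.81%) rose and 21 (0.52%) fell at an adjusted p below 0.05 (edgeR) and at least 2-fold. Of these 94, 82 moved the same way with both kits, 16 were also called by DESeq2, and 15 met both conditions. Changes between the stages are log2 ± SE, with the adjusted p from edgeR, and the median over all genes tested was 0.02. Without the kit term edgeR called 0 genes, with 175 at an unadjusted p below 0.05.

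Some late granule proteases rose. *Mcpt4*, a chymase of connective tissue mast cells, was 0 in both E14.5 libraries and 245 and 25.8 CPM at E17.5 v1 and v2 (at least 5.81-fold with 3 UMIs over the E14.5 cells as the floor). It passed the filter on low counts through the libraries where it was present, so no p is given for it. *Ctsg* was 142 and 132 CPM at E14.5 v1 batch 2 and v2 and 907 and 454 CPM at E17.5 (2.59 ± 0.43, adjusted p = 4.60e-07). Its level rested mostly on the cells with *Mcpt8* only. Summed over a stage, these held 673 CPM at E14.5 and 1907 at E17.5, against 0 and 128 CPM in tryptase cells. *Tpsab1* rose from 2769 to 10166 CPM with the v1 kit and from 793 to 7719 CPM with v2 (2.96 ± 0.82, adjusted p = 0.0172). In each of these 3 genes, both E17.5 libraries lay above both E14.5 libraries of the fit, although *Mcpt4* was at 31.4 CPM in the Fev-Cre library. In E14.5 v2 epithelial cells held 358 UMIs of *Tpsab1* against 156 in mast cells, and in E17.5 v2 359 against 4493. The change was not tested with the cells that the *Epcam* limit left out. Of the 8 tested proteases these 3 rose and 5 did not pass, with a median of 1.89 (1.17 with *Mcpt4* and *Mcpt2*, both at 0 UMIs at E14.5, at their bounds), and *Gzmb* was at 1.16 ± 0.52 (adjusted p = 0.423).

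*Mcpt4* was found in 14 of 106 mast cells at E17.5 (13.2%, thinned 6.60%) and in 1 of 77 at E14.5 (1.30%, thinned 0%). Its largest count was earlier: 1 cell of E12.5 v2, with 4506 UMIs in all, held 90 UMIs of *Mcpt4*, 115 of *Mcpt2*, 45 of *Mcpt1*, 27 of *Cma2*, 57 of *Cma1* and 29 of *Hdc*. That cell alone gave most of the *Mcpt1* and *Mcpt2* counted in mast cells (54 and 126 UMIs).

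Of 7 amine and lipid mediator genes tested, *Tph1* and *Ptgs2* rose and 5, *Hdc* and *Slc18a2* among them, did not pass. Of 10 genes of IgE receptor signalling, *Fcer1a* rose and 9 did not pass. *Tph1*, *Fcer1a* and *Ctla2a*, and *Slc6a4*, which is in no list and is named after its values were seen, had few UMIs at E14.5 and passed the filter on low counts through the libraries where they were high, so no p is given for them. *Tph1* was 67.4 and 15.2 CPM at E14.5 (v1 batch 2, v2) and 625 and 172 CPM at E17.5 (3.66 ± 0.49), and the serotonin transporter gene *Slc6a4* was 29.9 and 5.08 CPM and then 147 and 99.6 CPM. *Tph1* was in 42.5% of E17.5 cells (thinned 23.6%) and in 9.09% at E14.5 (thinned 0%). *Fcer1a* was 0 and 30.5 CPM at E14.5 and 159 and 168 CPM at E17.5 (3.60 ± 0.60). DESeq2 called *Serpinb1a* too, and gave no adjusted p for *Fcer1a* or *Slc6a4*. Its calls of *Tph1* and *Ctla2a* carry no weight, since the filter admitted these genes through the libraries where they were high. *Fcer1a* was in 32.1% of E17.5 cells (thinned 11.3%), in 3.90% at E14.5 (thinned 1.30%) and in 0 of 37 at E12.5. With 3 cells as the floor, which is not an exact interval, the latter allows a share of cells with a UMI of up to 8.11%. *Ctla2a*, an inhibitor of cysteine proteases, went from 7.48 and 35.6 CPM to 368 and 581 CPM (4.80 ± 0.53). *Serpinb1a*, an inhibitor of neutrophil-type serine proteases, rose from 464 and 503 CPM to 3213 and 2560 CPM (2.95 ± 0.59, adjusted p = 9.61e-05). No E14.5 value of these 5 genes reached an E17.5 value.

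**Figure D5:**
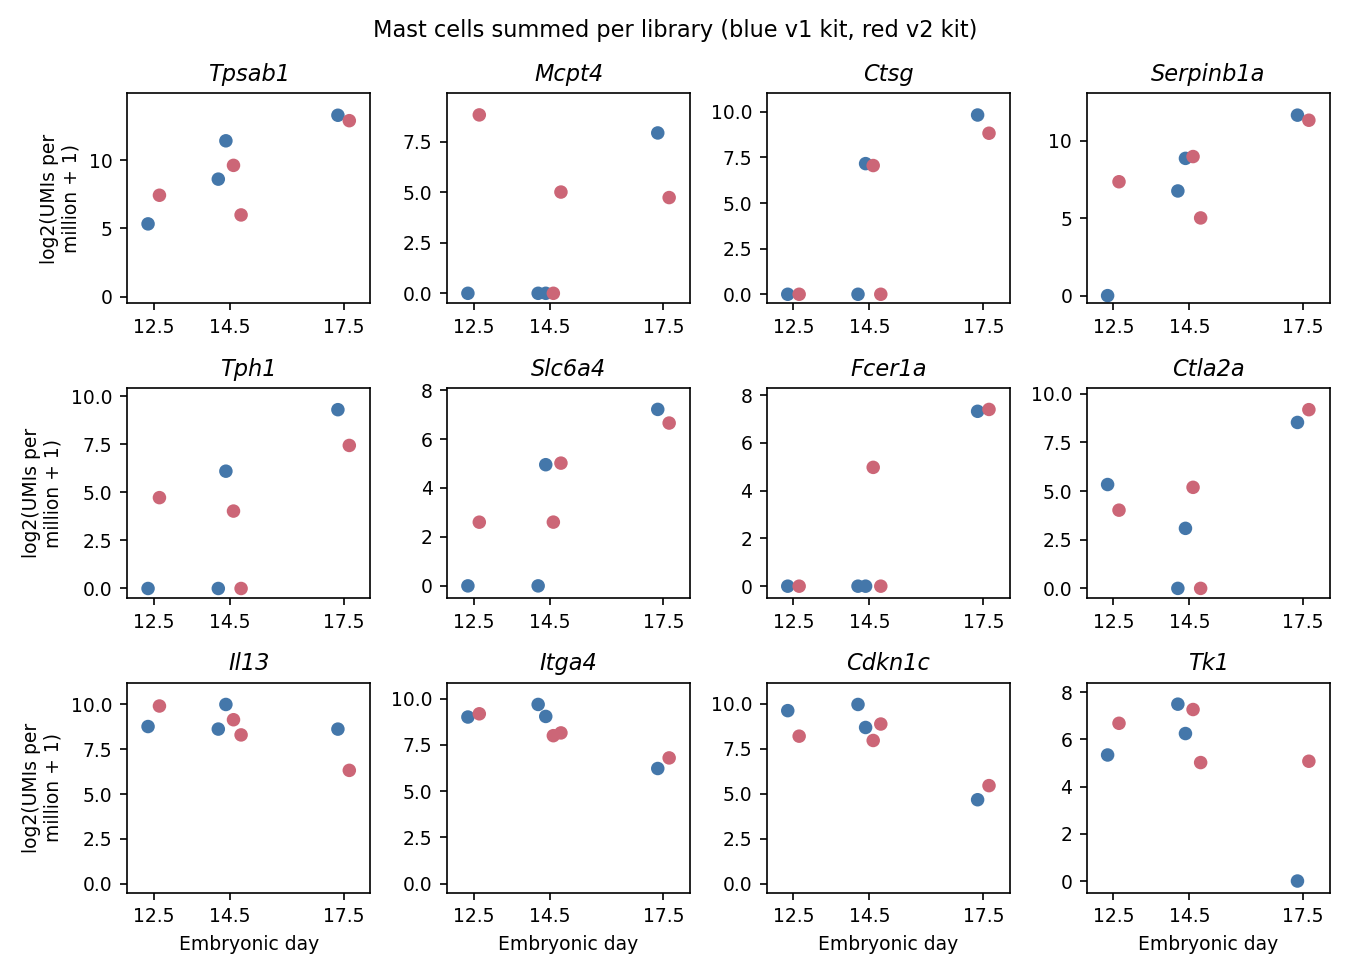
CPM of 12 genes in the mast cells of each library by embryonic day, on a log2(CPM + 1) axis. *Tph1*, *Fcer1a*, *Ctla2a* and *Serpinb1a* are higher at E17.5 with either kit than in the E14.5 libraries of the fit, and *Il13*, *Itga4* and *Cdkn1c* are lower. *Mcpt4* is also high in E12.5 v2, from 1 cell, and 1 of the v2 points at E14.5 is the Fev-Cre library.

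Of 12 cytokine and chemokine genes of the list that were tested, 4 rose and *Il13* fell. *Ccl4* (2.84 ± 0.72), *Ccl3* (2.28 ± 0.52) and *Ccl9* (1.90 ± 0.50) rose by edgeR, with an adjusted p of 0.0111 or less, but were not called by DESeq2 (adjusted p = 0.998, 0.998 and 0.279). *Cxcl2*, also of the list, and *Ccl6*, in no list, were called by both tools from few UMIs at E14.5. *Cxcl2* was 44.9 and 5.08 CPM at E14.5 (v1 batch 2, v2) and 1398 and 20.6 CPM at E17.5, so the stages overlapped across the kits. The chemokine genes *Ccl1* (-2.19 ± 0.59) and *Cxcl12* (-1.45 ± 0.42, adjusted p = 0.0272), which were in no list, fell, and *Cxcl12* is named after its values were seen. *Ccl1* held 68 UMIs in the mast cells of the fit. It passed the filter on low counts through the libraries where it was high, so no p is given for it. *Ccl4* was at 0 CPM in E14.5 v1 batch 2 and 625 CPM in E14.5 v2 and did not move the same way with both kits. *Mcpt8* (2.67 ± 0.76, adjusted p = 0.0254) and *Prss34* (2.21 ± 0.52, adjusted p = 0.00251) rose by edgeR, and DESeq2 called *Prss34* but not *Mcpt8* (adjusted p = 0.111). *Mcpt8* rested on 28.3% of the E17.5 cells and 16.9% of the E14.5 cells. With all cells holding at least 3 *Mcpt8* UMIs left out, 77 of the 88 called genes still tested stayed called, *Serpinb1a* among them. *Tph1*, *Fcer1a*, *Ctla2a* and *Mcpt4* rose again, which lends no support, since the filter on low counts admitted them through the libraries where they were high. Among the calls lost, *Ccl9* was at 0.06 in place of 1.90. *Ptgs2* (1.85 in place of 2.32) and *Itga4* (-1.27 in place of -1.40) changed less. The change of *Ctsg* was then 5.54 in place of 2.59, and that of *Fcer1a* 5.46 in place of 3.60, both over almost no E14.5 counts. Summed over E14.5, tryptase cells held 0 CPM of *Ctsg* and 6.76 of *Fcer1a*, and cells with neither protease held 11.2 and 0. *Ccl6*, at 730 CPM in cells with *Mcpt8* only and 0 in tryptase cells, was no longer tested. With cells holding at least 3 UMIs of *Mcpt8* and *Prss34* together left out, 67 of 87 stayed called.

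Genes that fell included a cytokine, an integrin and genes of growth and replication. DESeq2 called 16 genes as risen and 0 as fallen, so edgeR alone called each of these. *Il13* went from 1018 and 564 CPM at E14.5 (v1 batch 2, v2) to 392 and 79.0 CPM at E17.5 (-1.73 ± 0.47, adjusted p = 0.0151), and from 58.4% of cells (thinned 36.4%) to 24.5% (thinned 7.55%). In E14.5 batch 1 and Fev-Cre, outside the fit, *Il13* was about as low as in E17.5 v1 or lower. *Itga4*, which pairs with *Itgb7* in homing, went from 524 and 254 CPM to 73.6 and 110 CPM (-1.40 ± 0.43, adjusted p = 0.0489). *Cdkn1c* went from 412 and 249 CPM to 24.5 and 42.9 CPM (-2.51 ± 0.46). It passed the filter on low counts through the libraries where it was high, so no p is given for it. The growth factor genes *Mdk* (-2.54 ± 0.52) and *Ptn* (-2.16 ± 0.50) and the replication genes *Tk1* (-2.03 ± 0.60), *Ung* (-2.87 ± 0.77) and *Hells* (-2.20 ± 0.61) also fell. Of 16 tested S phase genes only *Tk1* fell, with a median of -0.62, and edgeR and DESeq2 each called 0 of 18 G2/M genes, with a median of -0.09 and 1 at an unadjusted p below 0.05.

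Core mast cell genes did not pass the test between these stages. *Hdc* was at 1.43 ± 0.73 (adjusted p = 0.555), *Kit* at 0.94 ± 0.40 (adjusted p = 0.358), *Gata2* at 0.53 ± 0.47 (adjusted p = 0.907), *Ms4a2* at 0.64 ± 0.42 (adjusted p = 0.781) and *Srgn* at 0.49 ± 0.73 (adjusted p = 0.947). With such errors a change of 2-fold in *Hdc* or *Srgn* was not detectable. Neither edgeR nor DESeq2 called any of 17 transcription factors, 6 heparin genes or 7 exocytosis genes, of which 4, 0 and 2 had an unadjusted p below 0.05. Beside the 1.81% of all genes that rose and the 0.52% that fell, a count of 0 in lists of this size is near the background.

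Genes of other cells moved with the stage as well. Called as higher at E17.5 were 5 of 6 erythroid genes, among them *Hba-a1* (5.79 ± 1.43), 4 of 7 acinar enzyme genes and 5 of 6 hormone genes. The 4 acinar genes, *Gcg* and *Ins1* did not move the same way with both kits. The sum of the acinar genes went from 172 to 36.8 CPM with the v1 kit and from 559 to 3632 CPM with v2. Haemoglobin made up at least 5% of the UMIs in 15 mast cells, 12 of them from E17.5 v2, 2 from E17.5 v1 and 1 from E14.5 v1 batch 2, with a maximum of 84.9%. When those 15 cells were left out, 69 of 93 called genes stayed called, among them *Ctsg*, *Tpsab1*, *Serpinb1a* and *Il13*. *Mcpt4*, *Tph1*, *Fcer1a* and *Ctla2a* rose again and *Cdkn1c* fell again. These 5 lend no support, since the filter on low counts admitted them through the libraries where they were high. Among the calls lost, *Hba-a2* was at 3.90 in place of 5.64. *Nkg7* (1.37 in place of 1.46) and *Itga4* (-1.37 in place of -1.40) hardly changed. Of 848 UMIs of the glucagon gene *Gcg* in mast cells, 795 were in 2 cells.

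The change from E14.5 to E17.5 in mast cells was also tested against that in macrophages, over the same 5 libraries. Of 4835 genes 5 (0.103%) differed at an adjusted p below 0.05 (edgeR): *Tpsab1*, *Ctla2a*, *Serpinb1a* and *Gcg* had the higher change in mast cells and *Btg2* the lower. *Tpsab1* and *Ctla2a* were low in macrophages and passed the filter on low counts through the mast cells, so their calls carry no weight as a test. In macrophages *Ctla2a* was 6.65 and 7.33 CPM at E14.5 (v1 batch 2, v2) and 0 and 5.69 CPM at E17.5, and *Serpinb1a* was 26.6 and 59.3 CPM and then 65.1 and 29.2 CPM. The macrophage values of the stages overlapped for *Serpinb1a*, and those of *Ctla2a* were lower at E17.5, whereas in mast cells both E17.5 values of each gene lay above both E14.5 values. None of the 5 genes was called when E12.5 v2, E14.5 v2 or E17.5 v2 was left out, and the value of *Tpsab1* turned from 5.33 to -3.34 without E14.5 v2 (edgeR adjusted p = 1). DESeq2 called 0 genes here, with 43 at an unadjusted p below 0.05.

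Mast cells held fewer UMIs than macrophages of the same library. The medians were 4262 against 6840.5 (E14.5 v1 batch 2), 2407 against 4504 (E17.5 v1), 5480 against 7933 (E12.5 v2), 4869 against 5782.5 (E14.5 v2) and 6687 against 10628.5 (E17.5 v2). The log2 ratio was -0.61 ± 0.24 (SD, n = 5 libraries), negative in 5 of 5. The limits of both rules depend on the depth of a cell, so this difference is a description.

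Transcripts of G2/M genes were found in the mast cells, which does not by itself show that a cell was dividing. With each cell thinned to 1000 UMIs, at least 2 UMIs of 20 G2/M genes were found in 37.0%, 3.33%, 35.5%, 18.4% and 23.7% of mast cells in those libraries, in the same order. In macrophages the shares were 20.8%, 7.14%, 29.1%, 26.0% and 22.4%. Without thinning they were 44.4%, 10%, 51.6%, 50% and 39.5% in mast cells and 45.8%, 35.7%, 71.3%, 56.5% and 58.3% in macrophages. The thinned difference was 2.49 ± 9.30 percentage points (SD, n = 5, 2-sided exact permutation p = 0.625), within the spread between libraries. Thinned to 2000 UMIs it was 3.86 ± 5.41 percentage points (SD, n = 5), positive in 5 of 5 (2-sided exact permutation p = 0.0625, the smallest that 5 pairs allow). At that depth 10 mast cells and 2 macrophages of E17.5 v1 were left out as too shallow, and its difference turned from -3.81 to 1.67. E14.5 v2, with 0 cells left out, turned from -7.58 to 2.47. E17.5 v1 had the lowest share in both classes.

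The 4 mast cells of the Fev-Cre library are described without a test, since they are few and *Tpsb2* was in the rule. They held 251 UMIs of *Tpsb2* and 2 of *Tpsab1*, or 0.797 *Tpsab1* per 100 *Tpsb2*, where the other libraries had 7.86 to 60.7, with as few as 4 *Tpsb2* UMIs and 1 of *Tpsab1* in E12.5 v1. *Tpsg1*, a membrane-anchored tryptase, was at 1568 CPM in them and at 0 to 67.4 CPM elsewhere. Strain, reporter alleles, sort and pool changed together in this library and cannot be told apart. Neither reporter transcript was found in these 4 cells, and eGFP and tdTomato were found in 31 and 18 of the 96 macrophages.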

How the data were processed

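The authors deposited UMI counts per gene and cell as matrices, which were not altered. By the submitters' processing notes they were made with Cell Ranger 1.1 (v1) and 2.1 (v2) on mm10. Of the 2 deposited alignments of the Fev-Cre library the one with reporter sequences was used. Cells with 200 or more genes were kept, doublets were not called here, and the *Epcam* and C1q limits of the rule were the only guard against mixed cells. Counts were summed per library and class, with at least 10 cells each, and fitted over all genes with edgeR 4.0.16 (TMM, filterByExpr, quasi-likelihood, R 4.3.3). The class fit had library as a block because both classes came from the same suspension, and the stage fit had kit and stage terms. Calls needed 2-fold and an adjusted p under 0.05 (Benjamini-Hochberg over all genes tested). DESeq2 1.42.0, other scalings, filters and cell limits were alternatives. Permutation tests used Python 3.11.15, and the edgeR fits were tried on simulated counts. Precision rests on 1124 to 15932 UMIs per mast cell (median 5162) and the 4 to 76 cells of a library. The cells, lists and named genes were chosen with earlier results of these data known. Named genes were list members and the 10 largest called differences in each direction that moved alike in every library. Genes named outside this rule were chosen after their values were seen. Replicates were pools of pancreata, and the spread between pools may be technical. In the stage fit pools of the same stage differed in kit and sort. Its p-values thus measure how far the stage change differed between the kits, not the spread between like pools. In the class fit they measure how the class difference varied between libraries that differ in stage, kit or both.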

Additional observations from a re-analysis of the deposited data

Results flagged for a closer look

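For 5 genes the change from E14.5 to E17.5 in mast cells differed from that in macrophages, by the class-by-stage term of the edgeR fit (adjusted p = 0.0444 for *Serpinb1a*, *Btg2* and *Gcg*). *Tpsab1* and *Ctla2a* were low in macrophages and passed the filter on low counts through the mast cells, so no p is given for them. None of the 5 was called without E12.5 v2, without E14.5 v2 or without E17.5 v2. The log2 change in mast cells minus that in macrophages was 5.33 ± 0.90 (SE) for the tryptase gene *Tpsab1* (-3.34 without E14.5 v2), 4.87 ± 0.81 for *Ctla2a*, 3.04 ± 0.49 for *Serpinb1a* and -2.96 ± 0.50 for the antiproliferative gene *Btg2*. It was 6.01 ± 0.87 for the glucagon gene *Gcg*, of whose 848 UMIs in mast cells 795 were in 2 cells. *Btg2* was at 89.8 and 417 CPM in the mast cells of E14.5 v1 batch 2 and v2 and at 123 and 25.8 CPM at E17.5 v1 and v2, so it moved in opposite directions with the kits.

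Among the macrophages of E17.5 v1, 1 of 14 cells held 48 UMIs of *Mcpt8* beside 31 of the C1q genes, which gave that class 781 CPM of *Mcpt8*, against at most 0.726 CPM in the macrophages of the other libraries.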

How the results depend on the processing

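The comparison of mast cells with macrophages gave 727 to 1209 genes when 1 library at a time was left out, against 897. With the library term dropped, that is without the replicate block that pairs the classes of a suspension, it gave 428, and with no filter beyond 1 UMI 1903. The stage comparison gave 40 genes with scaling to total UMIs only (22 higher and 18 lower, against 73 and 21), a scaling that moved the median of all genes by -0.40, 55 with no filter, 16 with DESeq2, 17 with libraries of 5 or more cells and 0 without the kit term. Leaving out any of its E14.5 or E17.5 libraries left no residual degree of freedom and gave no value, and without E12.5 v2 it gave 81 genes. Of 52 named genes called there, 50 stayed called with RLE scaling, 30 with total UMIs only, 41 with no filter and 14 with DESeq2. The class-by-stage count of 5 genes became 0 with total UMIs only or DESeq2, 20 with no filter, 3 and 12 with 5 or 20 cells per library, 11 without cells holding collagen UMIs, 8 without cells holding *Mcpt8* or *Mcpt8* with *Prss34*, 10 without cells rich in haemoglobin, and 0 to 39 with 1 library left out. Its value for *Tpsab1* turned to -3.34 without E14.5 v2 and ran up to 10.13 with 1 library left out. Pearson's r of log2 share and day was 0.731 with a stricter rule (10 UMIs and 1% of UMIs), where it passed the test (permutation p = 0.0286, not adjusted). It was 0.850 without Fev-Cre and 0.448 to 0.850 with 1 library left out. For the log2 of mast cells per 100 macrophages r was then 0.0123 to 0.623. The difference in the share of cells with G2/M transcripts became -3.06 percentage points with 1 G2/M UMI as the limit and ran from -0.943 to 5.00 with 1 library left out, turning negative without E14.5 v1 batch 2. The stage change of *Ms4a2* turned to -0.21 with the stricter rule and to -0.32 without *Mcpt8* cells, by either split, and that of *Il6* to -1.47, -2.26 and -2.13 in that order, and *Il6* was then called as fallen without *Mcpt8* cells (edgeR adjusted p = 0.0333). The causes of these shifts were not tested. Alternatives without *Mcpt8* cells, without *Mcpt8* and *Prss34* cells and without haemoglobin-rich cells were chosen after seeing the data. The limits of these data are the small number of cells in a library, pools in place of embryos, and a single residual degree of freedom between stages.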
